A study of Mus musculus with 19 samples.

Results

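The comparison described here is ibuprofen chow against control chow in the hippocampus of APP-PS1 mice, with 5 arrays in each group out of the 19 arrays of the series. APP-PS1 mice (genotype APPSwe-PS1deltaE9, strain C57BL/6J) carry a mutant human amyloid precursor gene and a presenilin 1 gene that lacks an exon, both driven in this line by the prion protein promoter, and they deposit amyloid plaques. The ibuprofen group ate chow with 375 ppm of the drug and the control group the same chow without it, from 3 to 6 months of age, when the hippocampus was taken. All 10 arrays of the comparison therefore came from mice with the transgenes, and diet was the only labelled difference between them. The other 9 arrays came from wild-type littermates, 5 on ibuprofen chow and 4 on control chow. The mice were assigned to the diets at random, per the labels. Sex, litter and scan date are not given there, and nothing says how many mice stand behind each array, so p-values measure the spread between these arrays. Arrays were chosen by genotype and diet alone, and 19938 genes were measured, each by 1 probe set. No gene was selected for the comparison by its values.

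Ibuprofen blocks the cyclooxygenases, the enzymes that turn arachidonic acid into prostaglandins. In brain, the inducible enzyme is made by excitatory neurons as well as under inflammation, and its main product there, prostaglandin E2, acts through receptors on neurons and microglia. Plaques in these mice are surrounded by microglia and astrocytes that switch on characteristic genes. The hippocampus holds granule neurons in the dentate gyrus and pyramidal neurons in fields CA1, CA2 and CA3, and transcripts of each type are known.

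Values are log2 summaries per probe set, and differences are ibuprofen minus control on the log2 scale, so that 1 unit is a doubling. The 10 arrays correlated with each other at 0.991 to 0.999 across genes, and the number of arrays limits the precision. The upper quartile over all probe sets was 9.73 to 9.84 on ibuprofen arrays and 9.79 to 9.84 on 4 control arrays, and control replicate 1 stood apart at 9.925. Of markers of hippocampal neurons, Prox1, the transcription factor that defines granule neurons, lay between 10.10 and 10.59 on ibuprofen arrays and between 10.43 and 10.65 on control arrays. The probe set of App, whose reading of the transgene against the mouse gene is not given, stood at 13.59 ± 0.03 on ibuprofen and 13.60 ± 0.02 on control chow (SD, n = 5 each), a difference of -0.01 ± 0.03 (SE). In such tissue, fewer cells of a type and less RNA per cell cannot be told apart.

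No gene passed limma at an adjusted p under 0.05, or 0% of the 19938 genes, beside 1292 at an unadjusted p under 0.05. Of these, 362 genes (1.82%) were higher on ibuprofen and 930 (4.66%) were lower. The groups did not overlap, all 5 ibuprofen arrays lying on 1 side of all 5 control arrays, for 101 genes (0.507%) that were higher and 452 (2.27%) that were lower. Differences were small: the median over all genes was -0.02, 226 genes differed by more than 0.25 in either direction and 12 by more than 0.5. Of all genes, 58.2% lay below 0, which is the baseline for counts of list members below or above 0. With arrays weighted by how well they fitted their group, limma called 108 genes, 24 higher and 84 lower.

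Penk, the gene of proenkephalin, from which the opioid enkephalins are cut (chromosome 4, probe set 10511363), had the smallest p of all genes. Ibuprofen replicates 1 to 5 read 12.13, 11.77, 12.57, 11.78 and 12.54, against 11.52, 11.58, 11.32, 11.30 and 11.33 on control replicates 1 to 5. Every ibuprofen array lay above every control array, and ibuprofen replicates 3 and 5 were far above replicates 2 and 4. The difference was 0.75 ± 0.13 (SE, 95% interval 0.48 to 1.02, adjusted p = 0.168), a ratio of 1.68. Penk passed the threshold when ibuprofen replicate 2 (adjusted p = 0.0177) or ibuprofen replicate 4 (adjusted p = 0.0331) was left out. These were the arrays of the group with the lowest Penk values, and Penk passed in no other leave-out.

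Drd1, the dopamine D1 receptor gene (chromosome 13), read 9.27, 8.81, 9.35, 9.26 and 9.39 on ibuprofen arrays, against 8.89, 8.94, 8.64, 8.59 and 8.71 on control arrays. Ibuprofen replicate 2 lay among the control arrays and the other 4 above all of them. The difference was 0.46 ± 0.12 (SE, adjusted p = 0.716). Penk and Drd1 are known from striatal projection neurons as well as from hippocampus, and striatum lies near the dissected tissue. Of 17 measured striatal markers, 11 lay above 0 with a median of 0.03, and without ibuprofen replicate 2 that median was -0.03. Penk and Drd1 were the 2 members higher at an unadjusted p under 0.05, and Rasd2, a small GTPase gene of striatum, was lower (-0.20 ± 0.08, SE), where 1.82% of all genes were higher and 4.66% lower. Of the other defining markers, Drd2, the dopamine D2 receptor gene, gave 0.03, Ppp1r1b, a phosphatase inhibitor, 0.07, Rgs9 0.00 and Adcy5 0.01. Per array the mean of the list was 9.19, 9.35, 9.25, 9.16 and 9.21 on ibuprofen and 9.22, 9.17, 9.13, 9.15 and 9.11 on control chow. With the mean of this list without Penk as a covariate, Penk gave 0.75 ± 0.13 (SE).

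Npy, the gene of neuropeptide Y, a peptide of inhibitory neurons, read 11.61, 11.59, 12.24, 11.61 and 12.03 on ibuprofen arrays, against 11.69, 11.49, 11.52, 11.43 and 11.43 on control arrays. Only ibuprofen replicates 3 and 5 lay above all control arrays. The difference was 0.31 ± 0.11 (SE, adjusted p = 0.716), and 0.20 without ibuprofen replicate 3. Npy was the highest of 17 measured interneuron genes, of which 10 lay below 0, beside 58.2% of all genes. The median of that list was -0.03, and 0.01 without control replicate 1. At an unadjusted p under 0.05, 1 interneuron gene was higher and 2 were lower, beside 1.82% and 4.66% of all genes. Plpp4, a phospholipid phosphatase gene, had a difference of 0.48 ± 0.11 (SE, adjusted p = 0.661), with values of 10.47, 10.12, 10.76, 10.28 and 10.59 on ibuprofen and 10.24, 10.10, 9.86, 9.72 and 9.89 on control chow. Its groups overlapped through ibuprofen replicate 2 and control replicate 1. Ecel1, which encodes a neuronal endopeptidase, gave 0.69 ± 0.23 (SE), with 9.41, 9.93, 9.55, 8.90 and 9.16 on ibuprofen and 8.91, 8.73, 8.64, 8.67 and 8.56 on control arrays. Here ibuprofen replicate 2 was the highest array, and replicate 4 lay just below control replicate 1. Rprm, the cell cycle gene reprimo, which deep-layer cortical and subicular neurons express, gave 0.49 ± 0.16 (SE), with 10.50, 10.03, 10.48, 10.43 and 10.95 on ibuprofen and 10.58, 10.25, 9.78, 9.54 and 9.80 on control chow. It was the highest of 17 measured neocortex and subiculum genes, of which 10 lay below 0, beside 58.2% of all genes. Their median was -0.08, and 0.00 without ibuprofen replicate 4. At an unadjusted p under 0.05, 1 of the 17 was higher and 2 lower, beside 1.82% and 4.66% of all genes.

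**Figure D1:**
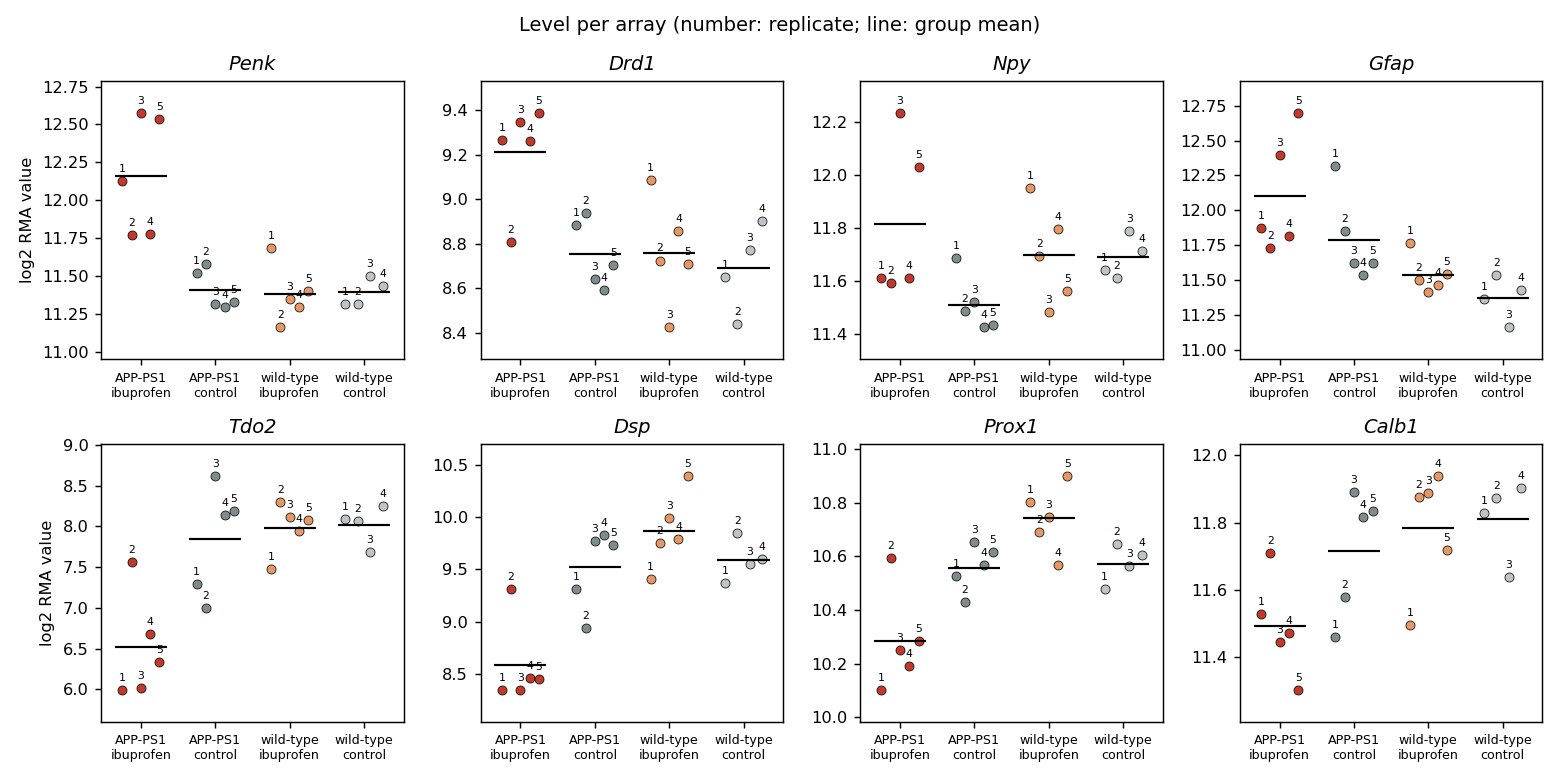
Log2 values of 8 genes on each of the 19 arrays, with APP-PS1 ibuprofen, APP-PS1 control, wild-type ibuprofen and wild-type control arrays from left to right; points carry the replicate number and lines are group means. Penk separates the APP-PS1 groups without overlap, and APP-PS1 ibuprofen replicate 2 sits with the control arrays in Drd1, Tdo2, Dsp and Prox1.

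Beyond Penk, the opioid genes had no common direction, and the lowest of them, Mme, the neprilysin gene, gave -0.16. Of 14 measured, 8 lay above 0 with a median of 0.02. With Penk only Rgs4, a regulator of G protein signalling, was higher at an unadjusted p under 0.05 (0.19 ± 0.09, SE), beside 1.82% of all genes. Pdyn, the prodynorphin gene, gave -0.11, and the mu, delta and kappa receptor genes Oprm1, Oprd1 and Oprk1 gave 0.07, 0.06 and -0.07. The median of the list was -0.01 without ibuprofen replicate 3. Of 20 other neuropeptide genes 13 lay above 0 with a median of 0.08, from 0.04 without ibuprofen replicate 3 to 0.12 without control replicate 1. Grp, the gastrin-releasing peptide gene, gave 0.20 ± 0.10 and Gal, the galanin gene, 0.17 ± 0.11 (SE), while Cck, the cholecystokinin gene of interneurons and pyramidal cells, was lower by -0.11 ± 0.04 (SE).

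Of all genes, Tdo2 and Dsp, both of the granule neuron list, had the largest differences. Tdo2, the tryptophan dioxygenase that opens the kynurenine pathway and in mouse hippocampus marks granule neurons (chromosome 3, probe set 10498921), read 6.00, 7.57, 6.02, 6.68 and 6.34 on ibuprofen arrays, against 7.29, 6.9995, 8.62, 8.14 and 8.19 on control arrays. Ibuprofen replicate 2 lay above control replicates 1 and 2, and the other 4 ibuprofen arrays lay below every control array. The difference was -1.33 ± 0.28 (SE, adjusted p = 0.527), a ratio of 0.399. Tdo2 is a gene that the study of these arrays itself singled out, so it is no independent evidence. Dsp, the gene of desmoplakin, a desmosome protein that granule neurons express (chromosome 13, probe set 10404649), read 8.35, 9.31, 8.35, 8.46 and 8.45 on ibuprofen arrays, against 9.32, 8.94, 9.77, 9.83 and 9.74 on control arrays. Again only ibuprofen replicate 2 reached the control range. The difference was -0.93 ± 0.19 (SE, adjusted p = 0.527), a ratio of 0.523. Without ibuprofen replicate 2, Tdo2 gave -1.59 and Dsp -1.12, both with adjusted p = 0.0177, and these and Penk were then the 3 genes called.

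Among the other granule cell genes, Prox1 read 10.10, 10.59, 10.25, 10.19 and 10.28 on ibuprofen arrays and 10.53, 10.43, 10.65, 10.57 and 10.62 on control arrays. All ibuprofen arrays but replicate 2 lay below the lowest control array. The difference was -0.27 ± 0.08 (SE, adjusted p = 0.716). Adcy1, a calcium-stimulated adenylyl cyclase, read 11.64, 12.03, 11.77, 11.64 and 11.68 on ibuprofen and 11.89, 11.93, 12.19, 12.05 and 12.12 on control chow, a difference of -0.29 ± 0.08 (SE). Calb1, the calbindin gene, whose protein is known to be depleted from granule neurons in APP mice with seizures, gave 11.53, 11.71, 11.44, 11.47 and 11.30 on ibuprofen and 11.46, 11.58, 11.89, 11.82 and 11.83 on control chow, a difference of -0.22 ± 0.09 (SE). Its groups overlapped through control replicates 1 and 2, which were low. Lct, the lactase gene, gave -0.43 and Npnt, the nephronectin gene, -0.38, and both were named after their values were seen.

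Of the 25 measured granule neuron markers, 20 lay below 0, beside 58.2% of all genes, with a median of -0.07 against -0.02 for all genes. At an unadjusted p under 0.05, 7 were lower and 0 higher, beside 4.66% and 1.82% of all genes. The list was chosen with earlier results of these data known. It holds Tdo2, Dsp, Prox1, Adcy1 and Calb1, so these counts are not independent of the genes given above. The members with values near or above 0 included Rasl10a (0.16), C1ql2 (0.14), Jun (0.00) and Glis3 (0.02). Per array the mean of the list was 10.14, 10.39, 10.05, 10.17 and 10.21 on ibuprofen and 10.33, 10.26, 10.47, 10.38 and 10.41 on control chow, so ibuprofen replicate 2 again lay in the control range. The median kept its sign under both other scalings (-0.04 each) and ran from -0.11 without ibuprofen replicate 2 to -0.05 without control replicate 3. With the mean of the list without Tdo2 and Dsp as a covariate, Tdo2 gave -1.05 ± 0.28 and Dsp -0.66 ± 0.17 (SE). For progenitors and immature neurons of the dentate gyrus the median over 14 genes was 0.00, from -0.02 to 0.02 over the leave-outs. At an unadjusted p under 0.05, Sox11 was higher (0.23 ± 0.10, SE) and Neurod1 (-0.21 ± 0.09) and Eomes (-0.17 ± 0.08) lower, beside 1.82% and 4.66% of all genes.

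Markers of pyramidal neurons also had medians under 0. Of 12 CA1 genes 11 lay below 0 (median -0.10), of 12 CA2 genes 10 (median -0.07) and of 14 CA3 genes 11 (median -0.04, but 0.02 with array weights). Ndst4, a heparan sulphate modifying enzyme of the CA1 list, read 10.37, 10.47, 10.19, 10.13 and 10.28 on ibuprofen arrays and 10.49, 10.74, 10.62, 10.57 and 10.48 on control arrays. No array of the ibuprofen group reached the control range, and the difference was -0.29 ± 0.07 (SE, adjusted p = 0.656). CA1 and CA2 medians kept their sign when each of the 10 arrays was left out and under both other scalings, the CA1 median running from -0.16 without ibuprofen replicate 2 to -0.07 without control replicate 1. With the granule cell covariate the medians were -0.04 for CA1, 0.03 for CA2 and 0.00 for CA3, so CA2 changed sign there.

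Other genes were among the 12 lower ones with the smallest p. Jph1, a junctophilin that ties the plasma membrane to the endoplasmic reticulum, read 10.33, 10.52, 10.06, 10.43 and 10.45 on ibuprofen and 10.67, 10.57, 10.86, 10.68 and 10.74 on control chow. Its groups did not overlap, and the difference was -0.35 ± 0.07 (SE, adjusted p = 0.527). Cdh8, a cadherin of synapses, read 10.86, 10.94, 10.74, 10.84 and 10.88 on ibuprofen and 11.19, 10.98, 11.11, 11.08 and 11.07 on control chow, also without overlap, with a difference of -0.24 ± 0.05 (SE, adjusted p = 0.527). Chrna5, a nicotinic acetylcholine receptor subunit, gave -0.40 ± 0.10 (SE), at 8.34 to 8.87 on ibuprofen and 8.87 to 9.24 on control arrays, where ibuprofen replicate 2 met control replicate 4. Slc6a15, a neutral amino acid transporter, gave -0.21, Clvs2, which encodes a clathrin-vesicle protein, -0.27, Kctd4 -0.28, Tmem74 -0.29, Tmem144 -0.33 and Fam163b -0.27. In 11 of the 12 lower genes with the smallest p, ibuprofen replicate 2 was the highest array of its group. Among the 12 higher ones it was the lowest array in 7.

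Larger still but less even were 3 genes with lower values. Rtl3, which descends from a retrotransposon, was at -0.73 ± 0.19 (SE), with 6.96, 7.85, 7.25, 7.55 and 7.37 on ibuprofen and 7.81, 7.57, 8.50, 8.38 and 8.40 on control arrays. Tmem267 gave -0.85 ± 0.27 (SE), and ibuprofen replicate 4 alone read 8.87 while the other ibuprofen arrays lay between 9.80 and 10.49 and the control arrays between 10.60 and 10.94. Gmnc, a regulator of multiciliated cells, gave -0.60 ± 0.28 (SE), with control replicates 1 and 2 as low as the ibuprofen arrays. Among higher values, Reg3g, an antibacterial lectin gene, read 8.12 on ibuprofen replicate 2 and no more than 5.48 on the other 4, against 5.08 to 5.55 on control arrays, so its difference of 0.51 ± 0.35 (SE) was -0.04 without that array.

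The other higher genes with the smallest p included genes of the immune system and of the dim end of the array. Csf3r, the receptor of the granulocyte growth factor, read 8.47, 8.09, 8.17, 8.32 and 8.39 on ibuprofen and 7.89, 8.03, 8.01, 8.05 and 7.83 on control arrays, without overlap (0.33 ± 0.09, SE, adjusted p = 0.716). Ccl9, a chemokine gene, read 7.84, 7.51, 7.43, 7.63 and 7.83 on ibuprofen and 7.36, 7.29, 7.35, 7.26 and 7.37 on control arrays, also without overlap (0.32 ± 0.09, SE). Procr, the protein C receptor, gave 0.26, Prl, the prolactin gene, 0.28, Ppl, the gene of periplakin, 0.25, Tmc6 0.29, Msmp 0.29 and Zfp980, a zinc finger gene, 0.25.

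One microRNA locus stood among these genes. Mir184, on chromosome 9, read 6.11, 6.20, 6.00, 6.14 and 6.18 on ibuprofen and 5.70, 6.04, 5.93, 5.98 and 5.74 on control arrays, a difference of 0.25 ± 0.08 (SE, adjusted p = 0.716). Its groups overlapped through ibuprofen replicate 3. The probe set reads the locus and does not separate the mature products, which are shown because their seeds, bases 2 to 8 in capitals, are what a microRNA matches to its targets. The sequences are from RefSeq on GRCm38.p6, minus strand, at chr9:89802263-89802284 for the 3p product and chr9:89802302-89802323 for the 5p product.
miR-184-3p: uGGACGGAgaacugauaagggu
miR-184-5p: cCUUAUCAcuuuuccagccagc
The seeds differ, so a reading of the locus cannot be assigned to either set of targets.

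**Figure D2:**
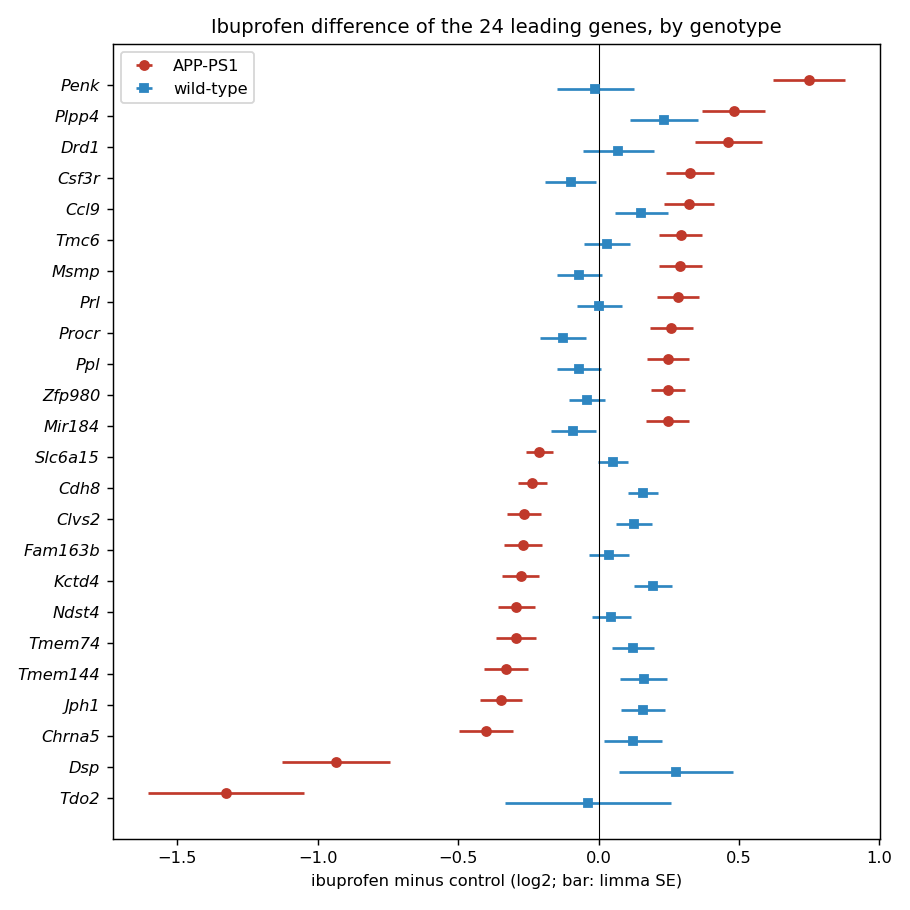
Ibuprofen minus control (log2, bars are limma SE) for the 12 higher and 12 lower genes with the smallest p in APP-PS1 mice, with the same difference in wild-type mice. The genes were chosen by their APP-PS1 values. Of the 12 lower ones, 11 lie above 0 in wild-type mice, where 66.8% of all genes do.

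Transcripts of the route that the drug blocks gave small differences. Of 27 measured prostaglandin enzymes, transporters and receptors, 14 lay above 0 with a median of 0.00 (-0.03 after quantile normalization), members ran from -0.15 to 0.14, and 0 passed an unadjusted p under 0.05 in either direction. Ptgs2, the inducible cyclooxygenase, read 11.07, 10.93, 11.38, 11.19 and 11.23 on ibuprofen and 11.49, 11.04, 11.06, 10.93 and 11.09 on control arrays, a difference of 0.04 ± 0.10 (SE, 95% interval -0.18 to 0.25). Control replicate 1 was the highest of all 10, and the difference was 0.13 without it, -0.02 without ibuprofen replicate 3 and -0.01 without control replicate 4. Ptges, the inducible prostaglandin E synthase, gave -0.04 ± 0.12, and the prostaglandin E2 receptor genes Ptger1, Ptger2, Ptger3 and Ptger4 gave 0.03, 0.08, 0.00 and 0.11. The breakdown enzyme gene Hpgd gave 0.02 and the phospholipase gene Pla2g4a -0.08.

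In the lipoxygenase branch, which uses the same fatty acid, 2 of 14 genes were lower at an unadjusted p under 0.05, beside 4.66% of all genes, and the median was -0.02, which was 0.01 after median centring. Alox12b, a lipoxygenase best known from skin, read 9.02, 9.39, 9.17, 8.82 and 8.90 on ibuprofen and 9.73, 9.41, 9.37, 9.28 and 9.39 on control arrays, a difference of -0.38 ± 0.11 (SE, adjusted p = 0.716). Its groups overlapped through ibuprofen replicate 2. Alox8 gave -0.19 ± 0.08 (SE), and Alox5 and its activating protein Alox5ap gave 0.05 and -0.07. Ibuprofen can also bind PPAR receptors, nuclear receptors of fat metabolism. Of 24 PPAR and fat oxidation genes 21 lay below 0, beside 58.2% of all genes, and 0 passed an unadjusted p under 0.05. Their median of -0.04 was -0.01 after median centring. Pparg itself gave 0.20 ± 0.11 (SE).

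Of 18 kynurenine pathway genes, Tdo2 was the only lower one at an unadjusted p under 0.05, where 4.66% of all genes were lower. Qprt, which makes the precursor of NAD, gave 0.17 ± 0.08, Gpr35, a receptor of kynurenic acid, 0.17 ± 0.08 and Tph2, the serotonin-forming hydroxylase that uses the same amino acid, 0.15 ± 0.07 (SE), each higher at an unadjusted p under 0.05. Of all genes, 1.82% were higher at that threshold. Kmo, Kynu and Haao gave 0.12, 0.08 and 0.07. The list median was 0.02, -0.01 after quantile normalization and -0.02 without ibuprofen replicate 4.

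Genes that microglia switch on around plaques were mostly on the higher side with ibuprofen. Of 37 measured, 28 lay above 0, where 58.2% of all genes lay below 0. Their median of 0.06 ran from 0.03 without ibuprofen replicate 5 to 0.10 without ibuprofen replicate 2. At an unadjusted p under 0.05, 4 were higher and 0 lower, beside 1.82% and 4.66% of all genes. Trem2, the receptor that microglia need to gather at plaques, read 9.61, 9.50, 9.43, 9.60 and 9.67 on ibuprofen and 9.50, 9.46, 9.44, 9.33 and 9.25 on control arrays, a difference of 0.17 ± 0.07 (SE, adjusted p = 0.716). Cd52, a surface glycoprotein of leukocytes, was without overlap, at 7.76 to 8.43 on ibuprofen and 7.51 to 7.73 on control arrays (0.32 ± 0.13, SE). Cst7, a cystatin of these cells, gave 0.21 ± 0.11 (0.13 without ibuprofen replicate 1, 0.14 without control replicate 4) and Apoe, the apolipoprotein E gene, 0.03 ± 0.05 (SE). Timp2 gave 0.11 and Cd84 0.19. In wild-type mice, 27 of the 37 genes lay above 0 with a median of 0.07, where 66.8% of all genes lay above 0.

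Complement and Fc receptor genes had a median of 0.09 (0.04 without ibuprofen replicate 5), with 16 of 20 above 0. Of these 20, 1, the complement protease gene C1ra, was higher at an unadjusted p under 0.05 (0.14 ± 0.07, SE), beside 1.82% of all genes. C1qb, a subunit of the first complement component, gave 0.17 ± 0.09 and Fcgr3 0.20 ± 0.10 (SE). Cytokine and chemokine genes had a median of 0.09 (0.05 without ibuprofen replicate 4), with 22 of 31 above 0. Ccl9 was higher and Il33, an alarmin of oligodendrocytes and astrocytes, lower (-0.20 ± 0.07, SE) at an unadjusted p under 0.05, beside 1.82% and 4.66% of all genes. Homeostatic microglia genes had a median of 0.05 (0.02 without ibuprofen replicate 5), with 17 of 22 above 0 and 0 at an unadjusted p under 0.05. These 4 medians kept their sign under both other scalings and when each of the 10 arrays was left out, and the lists share members. In wild-type mice the medians were 0.08 for complement and Fc receptor, 0.04 for cytokine and chemokine and 0.09 for homeostatic microglia genes. The wild-type median over all genes was 0.05.

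Astrocyte genes varied mainly by array. Gfap, the filament protein of astrocytes, read 11.87, 11.73, 12.39, 11.82 and 12.70 on ibuprofen and 12.32, 11.85, 11.62, 11.53 and 11.62 on control arrays, a difference of 0.31 ± 0.16 (SE, adjusted p = 0.716). Ibuprofen replicates 3 and 5 and control replicate 1 were the 3 high arrays, and the difference was 0.44 without control replicate 1 and 0.16 without ibuprofen replicate 5. Serpina3n, a protease inhibitor of reactive astrocytes, was highest on the same arrays, at 12.50 and 13.08 on ibuprofen replicates 3 and 5 and 12.48 on control replicate 1, and gave 0.23 ± 0.14 (SE), or 0.06 without ibuprofen replicate 5. Timp1, a metalloprotease inhibitor, read 8.69 and 7.998 on ibuprofen replicates 5 and 3 and 8.04 on control replicate 1, against 7.16 to 7.55 on the other ibuprofen and 7.22 to 7.29 on the other control arrays. Its difference was 0.36 ± 0.21 (SE), and 0.13 without ibuprofen replicate 5. Of 24 reactive astrocyte genes 18 lay above 0 (median 0.09, from 0.05 without control replicate 2 to 0.13 without ibuprofen replicate 2), 0 of them at an unadjusted p under 0.05. Of 17 general astrocyte markers 13 lay below 0 (median -0.01, 0.02 after median centring).

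Interferon-induced genes varied with replicate 5 of either group. The mean of 21 of them was 8.70 on ibuprofen replicate 5 and 8.03 to 8.30 on the other ibuprofen arrays, and it was 9.13 on control replicate 5 and 8.01 to 8.14 on the other control arrays. Their median difference of -0.03 was 0.17 without control replicate 5, 0.03 without ibuprofen replicate 1, 0.04 without ibuprofen replicate 2, 0.01 after median centring and -0.16 without ibuprofen replicate 5, and 0 members passed an unadjusted p under 0.05. Antigen presentation genes had a median of 0.07 (0.02 without control replicate 1 and 0.15 without ibuprofen replicate 2), with 10 of 13 above 0 and 0 at an unadjusted p under 0.05.

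Among 26 genes of amyloid processing and clearance, 20 lay below 0, beside 58.2% of all genes. Their median of -0.02 was the same as that of all genes, and was 0.01 after median centring. Adam10, the main alpha-secretase, was the only gene lower at an unadjusted p under 0.05 (-0.12 ± 0.05, SE), beside 4.66% of all genes. Aph1b, a subunit of gamma-secretase, gave -0.11 ± 0.06, Adam9 -0.11 ± 0.06 and Clu, the clusterin gene, 0.08 ± 0.04 (SE). Mme, the gene of neprilysin, an enzyme that degrades amyloid beta and enkephalins, gave -0.16 ± 0.09 (SE).

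**Figure D3:**
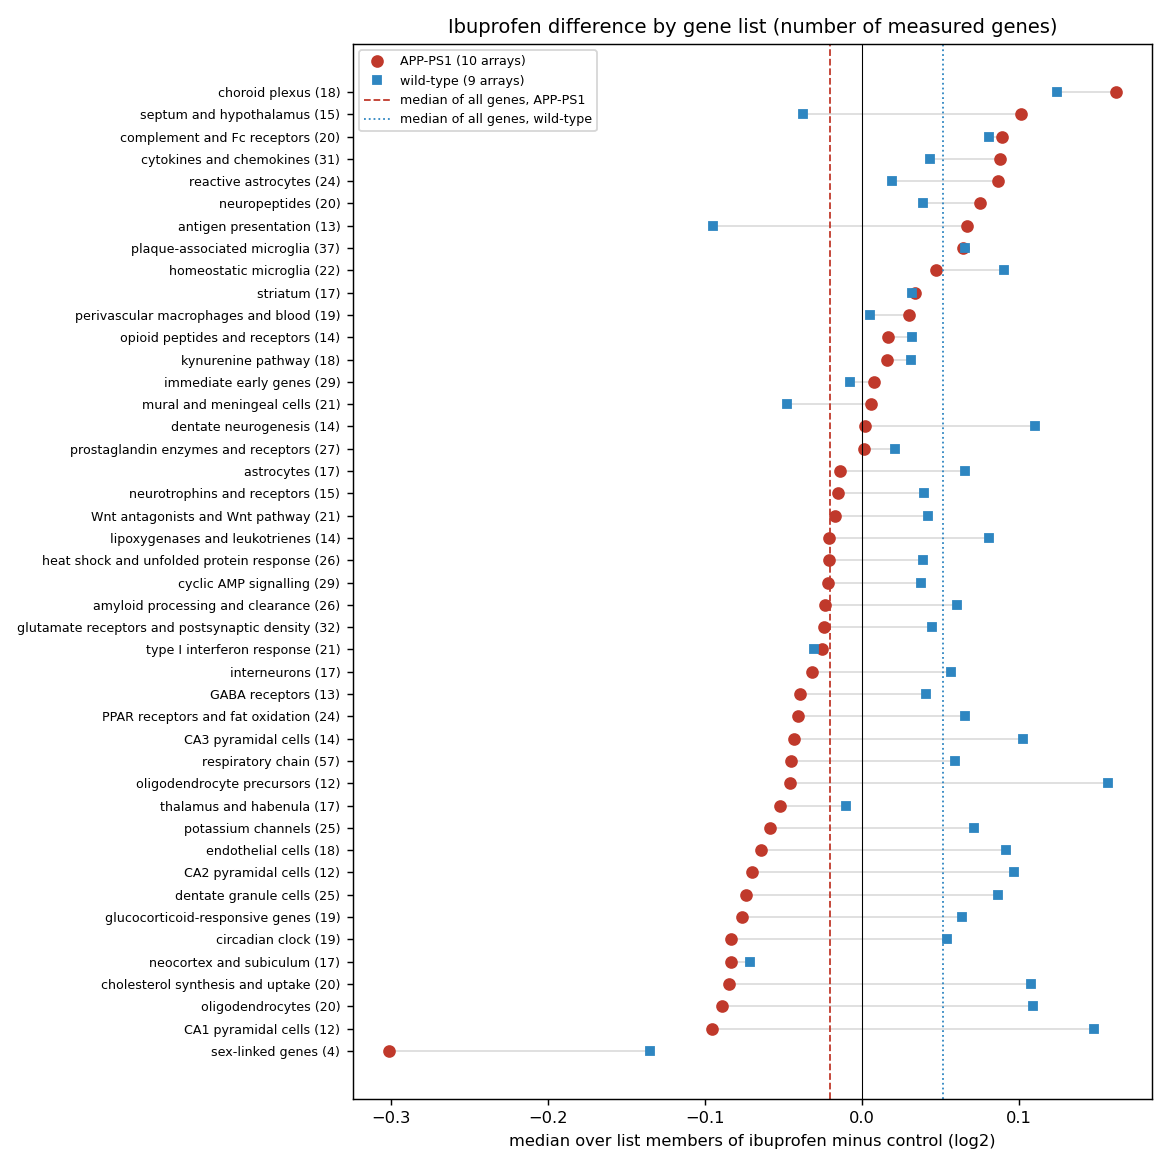
Median ibuprofen minus control (log2) over the measured members of each of 44 gene lists, for APP-PS1 (circles) and wild-type mice (squares); dashed and dotted lines are the medians over all genes, -0.02 and 0.05. In APP-PS1 mice the choroid plexus (0.16) and septum and hypothalamus (0.10) lists have the highest medians, and the sex-linked (-0.30) and CA1 (-0.10) lists the lowest.

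Several lists outside neurons and immunity had medians under that of all genes. Of 20 oligodendrocyte genes 18 lay below 0 (median -0.09), beside 58.2% of all genes. Gpr37, a receptor of myelinating cells (-0.18 ± 0.07, SE), and Aspa, the aspartoacylase gene (-0.25 ± 0.09, SE), were lower at an unadjusted p under 0.05, beside 4.66% of all genes. The median ran from -0.13 without ibuprofen replicate 1 to -0.04 without ibuprofen replicate 4. All 20 cholesterol synthesis and uptake genes lay below 0 (median -0.08), but the list mean was 10.12 to 10.49 on ibuprofen arrays, 10.25 to 10.33 on 4 control arrays and 10.73 on control replicate 1. Without control replicate 1 their median was 0.00, and with array weights 0.02. Of 57 respiratory chain genes 49 lay below 0 (median -0.05, -0.01 after median centring), beside 58.2% of all genes, and 0 passed an unadjusted p under 0.05. Ndufb3, a complex I subunit, gave -0.24 ± 0.12 (SE), at 8.98 to 9.22 on ibuprofen and 9.21 to 9.55 on control arrays, with an overlap of ibuprofen replicate 2 and control replicate 2.

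Clock genes had a median of -0.08, with 17 of 19 below 0, beside 58.2% of all genes. Hlf, an output transcription factor of the clock, gave -0.21 ± 0.07 and Arntl, a core activator, -0.12 ± 0.06 (SE), both lower at an unadjusted p under 0.05, beside 4.66% of all genes. Glucocorticoid-responsive genes had a median of -0.08, with 15 of 19 below 0 and 3 lower at an unadjusted p under 0.05, beside 4.66% of all genes: Bcl6, a transcriptional repressor (-0.27 ± 0.08), Zbtb16 (-0.18 ± 0.08) and Errfi1, a feedback inhibitor of growth factor signalling (-0.12 ± 0.06, SE). Mt1, a metallothionein gene, gave 0.13 ± 0.06 (SE). Fkbp5, a chaperone of the receptor, gave -0.12 ± 0.10 and Sgk1, a kinase gene, 0.05 ± 0.11 (SE).

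Potassium channel genes had 5 of 25 lower at an unadjusted p under 0.05, beside 4.66% of all genes, with a median of -0.06 (-0.03 without control replicate 1). Kcnt2, a sodium-activated channel, read 10.25, 10.49, 9.83, 10.18 and 10.27 on ibuprofen and 10.55, 10.42, 10.56, 10.35 and 10.51 on control arrays (-0.27 ± 0.09, SE). Kcnq3, which carries the M current, gave -0.14, Kcnh7 -0.20 and Kcnk2, a background leak channel, -0.16. Of 32 glutamate receptor and postsynaptic genes 3 were lower at an unadjusted p under 0.05, beside 4.66% of all genes, with a median of -0.02 that was 0.01 after median centring: Grm5 (-0.10), Cacng8 (-0.12) and Gria1 (-0.08). For 29 cyclic AMP genes the median was -0.02 (0.01 after median centring, 0.00 without control replicate 1). Of these, 2 were lower at an unadjusted p under 0.05, beside 4.66% of all genes: Adcy1 and the phosphodiesterase gene Pde7b (-0.36 ± 0.12, SE). Immediate early genes, the first response of a neuron to activity, had a median of 0.01 (-0.04 without ibuprofen replicate 3), with 15 of 29 above 0. Bdnf, an activity-dependent neurotrophin gene, gave 0.10 ± 0.11 (SE), from 0.04 without ibuprofen replicate 5 to 0.20 without control replicate 1, which was its highest array at 8.98.

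Higher and lower values were divided by signal level. Over 4 bins of equal size from dim to bright genes, the median difference was 0.04, 0.03, -0.07 and -0.05. In the dimmest bin 182 genes were higher and 14 lower at an unadjusted p under 0.05, and in the brightest bin 17 and 418. Without control replicate 1, the array with the high upper quartile, the medians were 0.05, 0.04, -0.04 and -0.04, and 307 genes were higher and 497 lower. After median centring 545 genes were higher and 638 lower, and after quantile normalization 330 and 686. The means of the granule neuron, potassium channel, glutamate receptor, cyclic AMP and glucocorticoid lists lay in the range of the brightest bin. Group means of the cytokine and chemokine, septum and hypothalamus, and complement lists lay in bin 2 from the dim end. In that bin 133 genes were higher and 115 lower at an unadjusted p under 0.05. Group means of both microglia lists lay in bin 3. The shares of 4.66% lower and 58.2% below 0 over all genes pool bright and dim bins. The part of signal level in single list medians and counts was not tested. Under the same 3 settings Penk, Tdo2 and Dsp stayed at 0.76 to 0.78, -1.47 to -1.29 and -0.99 to -0.90.

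**Figure D4:**
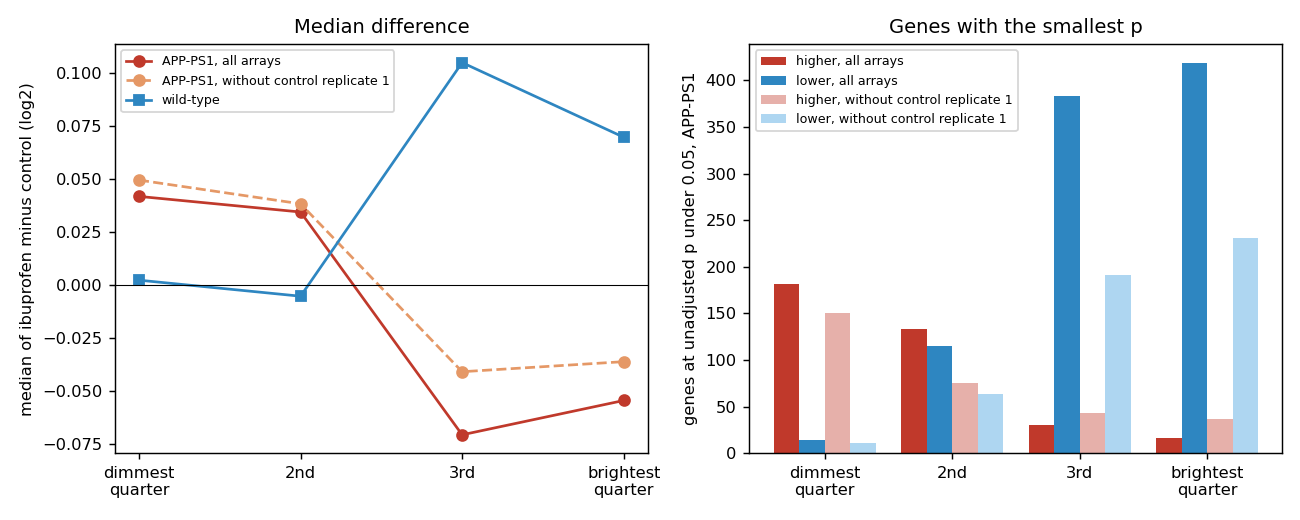
Left, median ibuprofen minus control (log2) in 4 bins of genes by mean level, for APP-PS1 with all arrays, APP-PS1 without control replicate 1, and wild-type. Right, number of genes at an unadjusted p under 0.05 in APP-PS1 mice in each bin and direction, with and without control replicate 1; the lower genes lie mostly in the 2 brighter bins.

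In wild-type mice ibuprofen gave 0% of genes at an adjusted p under 0.05 as well, beside 2198 at an unadjusted p under 0.05, 9.08% higher and 1.95% lower. Penk differed there by -0.01 ± 0.14, Tdo2 by -0.04 ± 0.30 and Dsp by 0.28 ± 0.20 (SE). The test of the difference between genotypes, the interaction, was past an adjusted p under 0.05 for 0 genes, and 4087 genes (20.5%) had an unadjusted p under 0.05. It stood at 0.76 ± 0.19 for Penk, -1.29 ± 0.41 for Tdo2, -1.21 ± 0.28 for Dsp and -0.39 ± 0.07 for Cdh8 (SE), each with adjusted p = 0.208. Of the 930 lower genes of APP-PS1 mice, 91.9% lay above 0 in wild-type mice, where 66.8% of all genes did. Wild-type ibuprofen replicates 1 and 5 had high upper quartiles of 9.94 and 9.996, against 9.77 to 9.83 on wild-type control arrays. Without those 2 arrays the shares were 83.2% of the 930 genes and 51.3% of all genes. Without them and without APP-PS1 control replicate 1, 1836 genes had an unadjusted interaction p under 0.05.

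Markers of tissue beside the hippocampus were read as well. Septum and hypothalamus genes had a median of 0.10, with 11 of 15 above 0 and 0 at an unadjusted p under 0.05. Their list mean was 7.86 to 8.02 on ibuprofen and 7.81 to 7.91 on control arrays, and the median ran from 0.06 without ibuprofen replicate 4 to 0.12 without ibuprofen replicate 1. The list shares Gal and other peptide genes with the neuropeptide list, and its part in the neuropeptide values was not tested. Thalamus and habenula genes had a median of -0.05, with 13 of 17 below 0 and 3 lower at an unadjusted p under 0.05, beside 4.66% of all genes. Slc17a6, a vesicular glutamate transporter, gave -0.39 ± 0.16 and Prkcd, a protein kinase C gene, -0.30 ± 0.14 (SE). Their list mean was 9.05 to 9.19 on ibuprofen and 9.14 to 9.26 on control arrays.

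Choroid plexus markers, from the secretory epithelium beside the hippocampus, had a list mean of 10.002, 8.12, 9.06, 8.22 and 10.04 on ibuprofen and 8.01, 7.98, 8.12, 10.33 and 9.94 on control arrays. High and low arrays stood in both groups, and the list median of 0.16 was 0.54 without control replicate 4, and -0.08 without ibuprofen replicate 5, -0.05 without ibuprofen replicate 1 and -0.03 without control replicate 1. The Penk, Npy and Gfap values were highest on ibuprofen replicates 3 and 5, of which replicate 5 was also high in choroid plexus and replicate 3 between the high and low arrays; the part of this tissue in them was not tested beyond a covariate, with which 397 genes were higher and 1064 lower at an unadjusted p under 0.05 and 0 passed.

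Genes of the Y chromosome also varied. Eif2s3y read 9.43, 10.62, 10.63, 10.42 and 10.73 on ibuprofen and 10.90, 11.05, 10.76, 10.80 and 11.00 on control arrays, a difference of -0.53 ± 0.20 (SE, adjusted p = 0.716). The groups did not overlap, and ibuprofen replicate 1 lay far below the rest, without which the difference was -0.30. Kdm5d and Uty were also lowest on ibuprofen replicate 1, at 9.11 and 9.64, against 9.74 to 9.84 and 10.37 to 10.56 on the other ibuprofen arrays. Their differences of -0.29 and -0.32 were -0.15 and -0.14 without that array. Xist, the transcript of the inactive X chromosome, was at 5.44 to 5.79 on ibuprofen and 5.52 to 5.77 on control arrays, so no array of either group stood out in it. Without ibuprofen replicate 1, Penk gave 0.76, Tdo2 -1.20 and Dsp -0.88, and 521 genes were higher and 901 lower at an unadjusted p under 0.05.

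**Figure D5:**
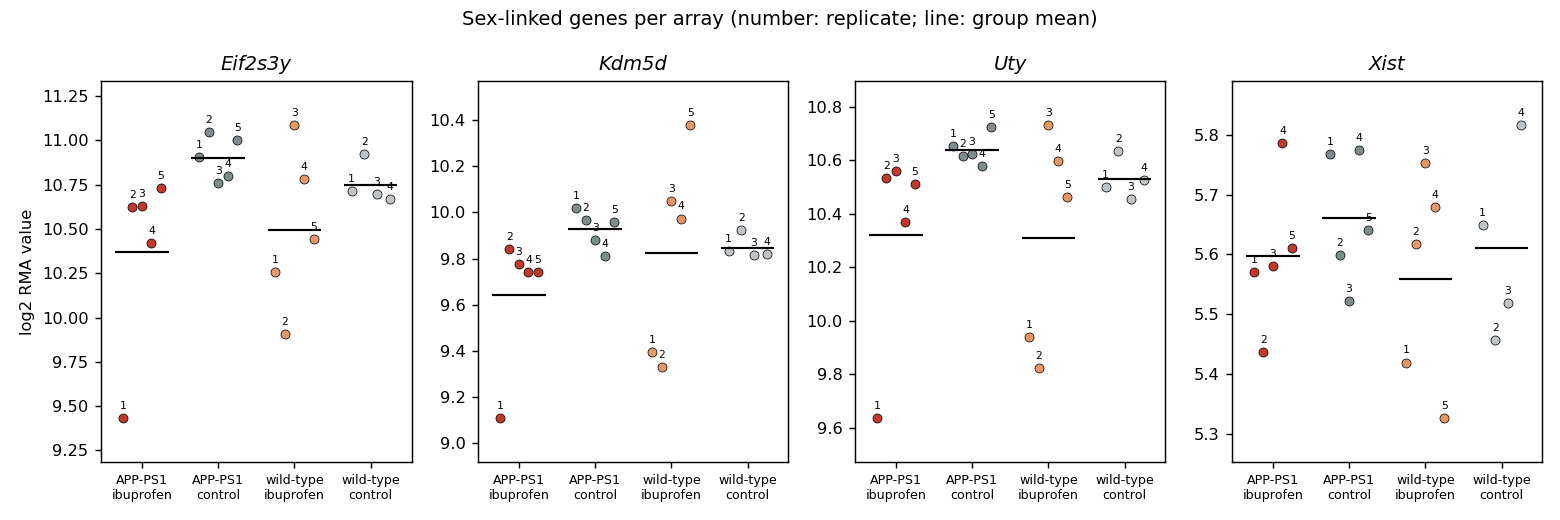
Log2 values of 3 genes of the Y chromosome and of Xist on each array, with APP-PS1 ibuprofen, APP-PS1 control, wild-type ibuprofen and wild-type control arrays from left to right; points carry the replicate number and lines are group means. APP-PS1 ibuprofen replicate 1 is the lowest array for each of the 3 Y-linked genes.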

How the data were processed

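Hippocampal RNA of 19 mouse samples was measured on Affymetrix whole-transcript arrays, 1 array per sample, and 10 of these make up the comparison. The authors deposited log2 values per probe set, which the submitters' processing notes tie to Partek 6.5 and RMA; its settings and annotation are not given in the sources used here. No further normalization was applied. Of 35556 probe sets, 21789 had 1 gene symbol in the platform annotation, 1621 several and 12146 none. Each of 19938 genes was read from 1 probe set, the one of highest mean across the 19 arrays where there were several (999 genes), and 19856 matched a RefSeq gene. The 4 group means were fitted together with limma 3.58.1 under R 4.3.3, with 15 residual degrees of freedom and a prior of 6.65 degrees of freedom with an intensity trend. Two-sided p-values received the Benjamini-Hochberg adjustment across all 19938 genes, and the threshold was 0.05. The SE of a difference is the moderated one of limma.

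Genes named were the 12 smallest p in each direction (3 predicted genes passed over), the 5 largest differences in each direction, up to 4 smallest p in each of 44 lists, and a set of genes always given. Genes, lists and alternatives were chosen with earlier results of these data known. Singled out after their values were seen were other list members given beside these. Lists are described by counts and medians and not tested, and they overlap. The fit was tested on simulated data. Replicate numbers of the titles were not taken as pairs. Deviations of samples with the same number correlated at -0.12 to 0.30 between diets, highest for replicate 5. So few correlations cannot show whether the numbers pair samples, and a replicate block was an alternative. Alternatives were other scalings, filters, probe set rules, prior settings, array weights, sample choices, a block, covariates, and each array left out. Figures used Python 3.11.15 and matplotlib 3.10.9.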

Additional observations from a re-analysis of the deposited data

Results flagged for a closer look

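Within each group of 5 arrays, the highest or lowest value was set against the rest by Dixon's ratio (gap over range above 0.71) for 45 genes, 44 list means and 3 Y-linked genes. Of 184 groups, 17 had such an array, where chance gives about 1 in 20. On ibuprofen arrays these were Drd1 low at 8.81 and Dsp high at 9.31, both on replicate 2, Reg3g high at 8.12 on replicate 2, and Ptger2 high at 6.97 on replicate 4. On control arrays Bdnf was high at 8.98 and Ptgs2 at 11.49, both on replicate 1, and Reg3g was low at 5.08 on replicate 2.

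Among list means, the neurotrophin list was high at 10.12 on ibuprofen replicate 3 and at 10.10 on control replicate 1. Control replicate 1 was also high in the CA3 list (10.38), the cholesterol list (10.73) and the oligodendrocyte precursor list (9.73), and control replicate 5 in the interferon list (9.13). The mean of sex-linked genes was low at 8.44 on ibuprofen replicate 1, as were its members Eif2s3y (9.43), Kdm5d (9.11) and Uty (9.64). What these arrays share was not tested. Interaction tests passed for 0 genes, as given above with limma.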

How the results depend on the processing

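With limma, the count of genes called for ibuprofen in APP-PS1 mice was 0, and 108 with array weights (the cause was not tested; 35 of these genes had groups without overlap, and 107 had an unadjusted p under 0.05 without weights). The weights were 0.502 to 2.20 for ibuprofen arrays and 0.341 for control replicate 1. The other settings on all arrays gave 0. Leaving out 1 array gave 0 to 3 calls, with 3 (Dsp, Penk, Tdo2) without ibuprofen replicate 2 and 1 (Penk) without ibuprofen replicate 4. For the interaction the count was 0, but 174 with array weights, 2 with the striatum covariate (Cap2 and Cdh8), and 0 to 13 over the leave-outs, 13 without APP-PS1 ibuprofen replicate 2.

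Counts at an unadjusted p under 0.05 moved more. Against 362 higher and 930 lower, they were 174 and 928 without the dimmest 4985 genes, 1193 and 2193 with array weights, 651 and 1155 without the 3 arrays that stand apart, 611 and 1783 with the 10 APP-PS1 arrays alone, 1193 and 2065 with the Xist covariate, 617 and 2261 with the striatum covariate, 345 and 409 with the granule cell covariate, and 712 and 1242 over every probe set. The leave-outs ran from 179 to 594 higher and 497 to 1567 lower, the lowest counts without ibuprofen replicate 4 and control replicate 1, and the highest without ibuprofen replicate 2 and wild-type ibuprofen replicate 5. Higher genes were 218 without control replicate 5, and lower genes 617 and 553 without ibuprofen replicates 3 and 4. The interaction count of 4087 was 452 with the granule cell covariate, 2794 after quantile normalization, and 2747 to 6046 over the leave-outs. With the replicate block, 0 genes were called for ibuprofen and 0 for the interaction, and 694 were higher and 1320 lower; it changed no call.

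Among the genes named by rule, none with an unadjusted p under 0.05 changed sign in an alternative or leave-out. Signal against background is not in the deposited values, so the limit it sets on dim genes is unknown.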
